A study of Homo sapiens with 8 samples.

Results

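A class of 790 genomic windows of 100 kb was described here. Their mean SON signal lay above the lowest value with DMSO and at the lowest value with PT2399. They were chosen by their measured values, a log2 SON concentration of at least 6 with DMSO and below 0 with PT2399, from chromosomes 1 to 22 over all 9 window sets. They made up 0.305% of the 259029 autosomal windows and 1.02% of the 77662 windows that had a DMSO concentration of at least 6. Overlapping windows were merged into 354 regions, which together covered 42.09 Mb and lay on all 22 autosomes. Because both concentrations chose the windows, the loss itself is a description and carries no test here.

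The data are SON TSA-seq profiles of 786-O, an established human clear cell renal carcinoma line that lacks functional VHL and therefore keeps HIF-2α stable. Cells received the vehicle DMSO or PT2399 at 2 µM, an inhibitor that stops HIF-2α from pairing with ARNT, and both groups were held for 3 h in RPMI with serum under atmospheric oxygen. Each treatment had 2 SON pulldowns and 2 inputs, 8 libraries in all, and all came from this single line. Groups follow the library titles, which the antibody and treatment fields contradict for 4 of the 8 libraries. The tables name their value columns control and treatment, and DMSO was taken as the control. The authors' own list of windows that went down with PT2399 runs the same way, as all 1403 of its windows were lower in the treatment column. Whether the 2 replicates are separate cultures is not in the labels, so the deposited p-values may measure technical spread only.

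Nuclear speckles are nuclear bodies rich in splicing factors, and SON is one of their core proteins. In TSA-seq, an antibody against SON brings peroxidase to the speckle, and the tyramide-biotin radicals it makes label DNA in a halo that fades with distance, so that pulled-down DNA reports how near a locus lies to speckles. Gene-dense, active chromatin usually lies near speckles, and gene-poor chromatin at the nuclear periphery lies far from them. A window with an intermediate SON signal thus belongs to neither extreme.

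The authors' values are log2 concentrations, 1 mean per treatment and window, on hg19. The scale ends at a floor, which was -0.07 for DMSO and -0.11 for PT2399, and the next value above it was 0.49 for DMSO and 0.46 for PT2399. A PT2399 value below 0 was therefore always the floor itself, and all 790 windows shared the value -0.11. The floor was common: 163748 of the 259029 autosomal windows were at it with PT2399, and the 790 made up 0.482% of these. The step sets a bound rather than a level, so the size of each change mainly repeats the DMSO level. On the linear scale the members went from between 64 and 367 with DMSO, with a median of 83.9, to 0.927 with PT2399. Depth per library is not known from these tables, and neither is the spread between libraries.

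The lost windows were of modest signal. Their DMSO concentration ran from 6 to 8.52 with a median of 6.39 and quartiles of 6.15 and 6.75, and 468 of the 790 (59.2%) lay below 6.5. DMSO levels of at least 7 were found in 119 windows, of at least 7.5 in 33 and of at least 8 in 6. The change, PT2399 minus DMSO, ran from -8.63 to -6.11 with a median of -6.50. Against these values, the 87051 autosomal windows that reached 2 with DMSO and with PT2399 had a median change of -0.12. Every member's change was bound to be large and negative by the way the class was chosen.

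The bounds of the class cut through a continuous range. With PT2399 at the floor, 86 windows had a DMSO concentration from 6 to 6.04 and were members, with a median change of -6.14, and 65 windows had one between 5.95 and 5.99 and were not, with a median change of -6.08. On the PT2399 side, 108 windows with a DMSO concentration of at least 6 lay above the floor but below 2. These 108 had PT2399 values from 0.46 to 1.93 and a median DMSO level of 6.40, which is close to that of the members.

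How often a window was lost fell steeply with its DMSO level. Of the windows with a DMSO concentration between 5 and 5.5, 25.4% were at the floor with PT2399. The share was 10.5% (468 of 4451 windows) between 6 and 6.5, 3.84% (203 of 5287) between 6.5 and 7, and 1.37% (86 of 6269) between 7 and 7.5. From 8 to 8.5 it was 0.062% (5 of 8070), and among the 37725 windows of 9 or more, 0 were lost. Loss to the floor was thus confined, in these tables, to windows below 8.53, and windows with the strongest SON signal were never among them.

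The reverse step was found in a similar number of windows. Under the mirrored rule, with DMSO below 0 and PT2399 at least 6, 809 windows in 329 regions were gained, against 790 windows in 354 regions lost. Gained windows had a PT2399 concentration from 6 to 7.99 with a median of 6.43. Between 6 and 6.5, 9.70% of windows by their PT2399 level were at the floor with DMSO, and between 7 and 7.5 1.64% were, shares that lie beside the 10.5% and 1.37% for loss. At 7.5 or more the classes parted, with 33 lost and 13 gained windows, and at 8 or more there were 6 lost windows and 0 gained ones. These windows overlap: the 33 lost ones lay in 19 regions and the 6 in 2 regions. Of the 6, 5 belonged to a single region on chromosome 10. The 13 gained windows were not counted by region. Lost windows outnumbered gained ones in 3 of the 9 sets, and single sets held from 78 to 102 lost and from 82 to 99 gained windows. Windows are not independent and the sets overlap, so the counts were not tested against each other.

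**Figure D1:**
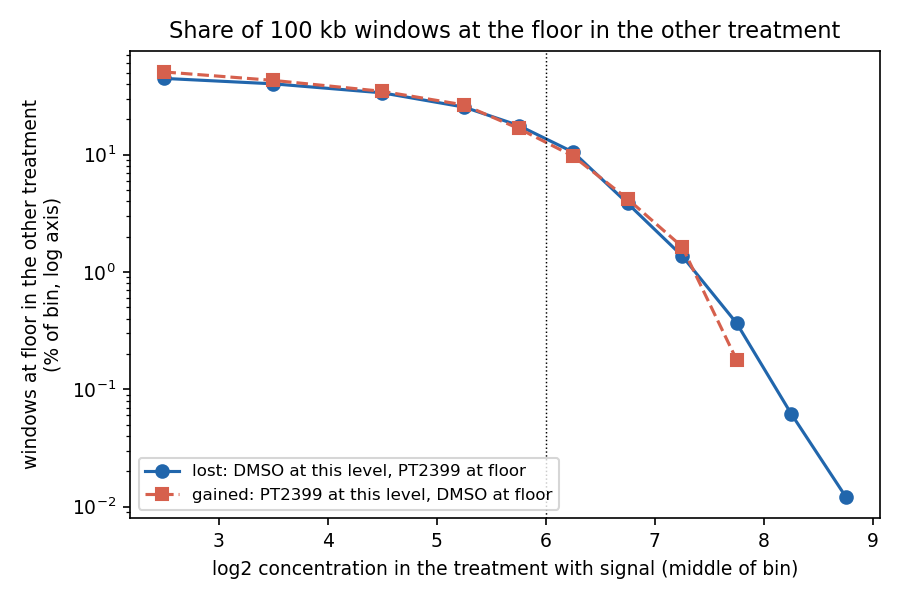
Share of autosomal 100 kb windows at the floor in the other treatment (percent, log axis) against the log2 concentration in the treatment that has signal, in bins. Points are bins, the dotted line marks the minimum of 6, and gained shares of 0 above 8 cannot be drawn on the log axis. Both curves fall together, from 10.5% and 9.70% between 6 and 6.5 to 1.37% and 1.64% between 7 and 7.5.

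In the authors' deposited tables, 265 of the 790 lost windows (33.5%) had an FDR of at most 0.01, where 0.653% of all autosomal windows, and 1.69% of those with 2 or more in either treatment, were called lower by that rule. The rule of the class used the same contrast, so nothing is read from the difference between these shares. At an FDR of at most 0.05 and 0.1, 545 and 756 members were called in the authors' deposited tables, beside 1.74% and 2.91% of all autosomal windows. The FDR of the members ran from 1.83e-10 to 0.111 with a median of 0.0263 in the authors' deposited tables. A window with an FDR of at most 0.01 lay in 143 of the 354 regions. The members made up 15.7% of the 1691 autosomal windows called lower, and all 265 called windows at the PT2399 floor were members, with a lowest DMSO level of 6.48. None of the members was in the authors' list of 1403 lower windows, whose PT2399 values are all at least 2, though 61 members in 26 regions overlapped a listed window of a shifted set.

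At a given DMSO level the members did not share a single p-value, and at some levels a gap divided them. Of the 51 members with a DMSO level between 6.20 and 6.24, 25 had a p between 0.000516 and 0.00219 in the authors' deposited tables. The other 26 had a p between 0.00552 and 0.00694, and no member of this level lay between 0.00219 and 0.00552. The widest ratio between neighbouring p-values, 2.52 at this level, was 2.53 between 6.40 and 6.44, 1.59 between 6 and 6.04 and 1.83 between 6.80 and 6.84. From 6.60 to 6.64 the p-values of 26 members ran from 6.65e-05 to 0.00238 in the authors' deposited tables, 35.8 times apart for the same step to the same floor. Of the 119 windows of 7 or more, 117 had an FDR of at most 0.01 in the authors' deposited tables. What sets the p-values apart was not tested, since values per library were not analysed here.

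**Figure D2:**
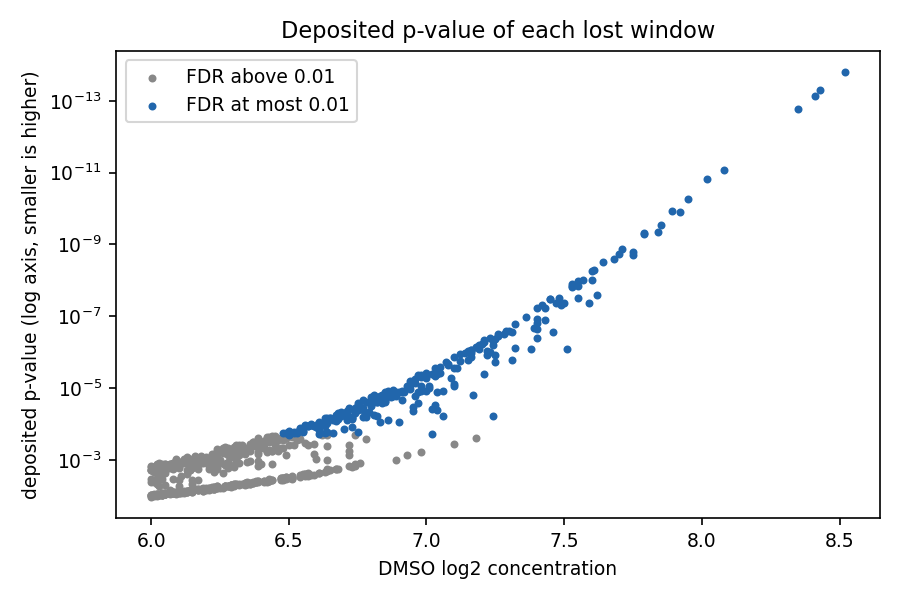
Deposited p-value of each of the 790 lost windows (log axis, smaller values higher) against its DMSO log2 concentration. Points are windows, blue where the deposited FDR was at most 0.01, and the points spread over a range of p-values at each level, with a gap between 0.00219 and 0.00552 for DMSO levels from 6.20 to 6.24.

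Most regions were short and were held by few sets. The median length was 110 kb, with quartiles of 100 and 130 kb, so that a typical region was a single window or a pair shifted by 10 kb. Of the 354 regions, 162 (45.8%) came from 1 set, 77 from 2, 55 from 3 and 29 from 4. Only 31 were held by 5 or more sets, and 1 region was held by all 9. The highest DMSO value in a region had a median of 6.29 for regions in 1 set, 6.64 for 3 sets and 7.23 for 7 sets. The sets cover the same libraries with shifted windows and are not replicates. Gained regions had a like spread, with 149 of 329 in 1 set and 2 in all 9.

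Shifting a member window by 10 kb, which keeps 90% of its DNA, often took it out of the class. Of 1390 such shifted windows, 636 (45.8%) were lost windows themselves. Another 324 stayed at the PT2399 floor but had a DMSO level below 6, and 352 kept a DMSO level of at least 6 but lay above the PT2399 floor. The other 78 had a DMSO level below 6 and lay above the PT2399 floor. Around the regions found in 1 set, no shifted window could be lost by definition, since the region would then have had more than 1 set. These 284 shifted windows split into 122 at the PT2399 floor with a DMSO level below 6 and 131 above the floor with DMSO still at 6 or more. The remaining 31 were above the floor with a DMSO level below 6. Where shifted windows left the floor, their median PT2399 value was 3.54, and the highest was 6.06. Inside the merged regions lay 179 windows of 100 kb that were not members, in 73 of the 354 regions, and 93 of the 179 were at the floor with PT2399. The remaining 86 inner windows had a PT2399 value above it.

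The 50 kb tables gave a more graded picture at the same places. Each member window could be split into a left and a right 50 kb window, and with PT2399 both were at the floor in 206 of the 790 (26.1%). In 504 members (63.8%) 1 of the pair was above the floor, with a median PT2399 concentration of 4.11, and in 80 (10.1%) both were above it. A 50 kb part reached 6 or more with PT2399 in 20 members, with the highest at 7.10. Most of the 100 kb windows at the floor therefore still held a 50 kb part with a SON value above the floor. With DMSO, both parts lay above the floor in 720 members and 1 part in 70, the higher part had a median of 6.16 and the lower one 4.75, and the higher part carried a median of 71.7% of the summed linear signal.

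The same split was made for other windows at the floor, with no test. Among gained windows, both 50 kb parts were at the DMSO floor in 24.5% (198 of 809). Among the 157653 windows at the floor in both treatments, both parts were at the PT2399 floor in 93.6%. Windows with PT2399 at the floor and a DMSO level from 2 to below 6 lay between, with 38.8% (1810 of 4659).

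Under the same thresholds, the 50 kb tables held 984 lost windows in 460 regions. In 183 of the 354 regions (51.7%) at least 1 such 50 kb window lay wholly inside, and in 165 more there was a 50 kb window at the PT2399 floor but with a DMSO level below 6. A further 6 regions had no 50 kb window at the PT2399 floor at all. In 12 regions every 50 kb window inside was at the PT2399 floor, and in 0 regions was a 50 kb window gained. Of the 31 regions held by 5 or more sets, 27 contained a lost 50 kb window, against 56 of the 162 regions held by 1 set (34.6%), but the former are longer and hold more 50 kb windows each. Per 50 kb window inside, 14.2% (104 of 732) were lost in the former and 6.36% (103 of 1620) in the latter. DMSO levels were not matched here: the highest value in a region had a median of 6.91 for 5 sets and 6.29 for 1 set. The difference was not tested. Overlap by at least 1 bp linked 57.1% of the 100 kb regions (202 of 354) and 46.1% of the 50 kb regions (212 of 460). A 50 kb window with an FDR of at most 0.01 and a lower level with PT2399 lay inside 77 regions in the authors' deposited tables. Of all autosomal 50 kb windows, 0.188% were called lower by that rule. The count of 77 is of regions, which hold several windows each and were chosen by the same contrast. It is therefore not compared with the share of windows. The 50 kb and 100 kb tables rest on one contrast of the same libraries, so neither checks the other.

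The regions were spread over the genome with no chromosome left out. Chromosome 2 held 43 regions, chromosome 1 held 36, chromosome 5 held 26 and chromosomes 6 and 7 held 25 each, while chromosome 21 held 1. Chromosomes 1 and 2 together had 22.3% of the regions and 17.1% of the autosomal windows. Counted against the windows with a DMSO level in the members' range of 6 to 8.52, 2.47% were lost over all autosomes. By this share chromosome 13 was highest at 4.53%, and chromosomes 9, 6 and 7 came next at 3.54%, 3.37% and 3.27%. The lowest shares were those of chromosome 21 with 0.207%, chromosome 18 with 0.962% and chromosome 17 with 1.20%. The share lost fell steeply with DMSO level within this range, and levels were not matched between chromosomes. No test was made between chromosomes, since neighbouring windows are not independent.

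By region, chromosome 2 came first for loss and for gain, with 43 lost and 49 gained regions. By window, loss and gain differed in number on several chromosomes. Chromosome 10 had 47 lost and 150 gained windows and chromosome 2 had 90 lost and 130 gained, whereas chromosome 1 had 84 lost and 47 gained. On the small chromosomes 19 and 22 there were 13 and 11 lost windows against 1 and 0 gained, and chromosome 17 had 14 against 2. Lost windows outnumbered gained ones on 14 chromosomes and were fewer on 8. These differences were not tested.

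**Figure D3:**
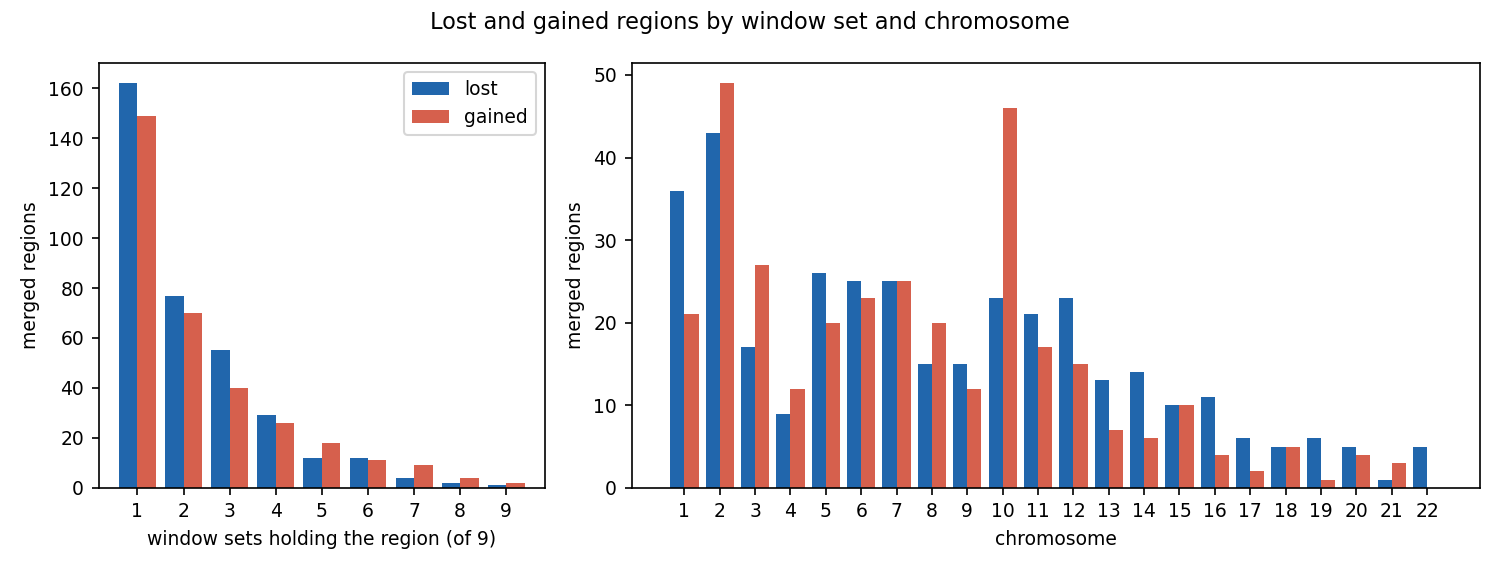
Number of merged regions lost (blue) and gained (red), on the left by how many of the 9 window sets held the region and on the right by chromosome. Bars are counts from 0, with 162 lost and 149 gained regions in a single set, and chromosome 10 shows 23 lost against 46 gained regions.

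Beside the lost windows the signal was much the same in both treatments. The window directly to the left, 100 kb away and sharing no DNA, had a median of 4.93 with DMSO and 4.96 with PT2399, and the one to the right 5.18 and 4.97. On the left 33.8% were at the floor with DMSO and 35.1% with PT2399, and on the right 32.5% and 33.7%. Of the 1580 flanking windows, 859 had 2 or more in both treatments, and their median change was -0.14, close to the -0.12 of all such autosomal windows. Of the flanking windows, 22 (1.39%) were lost windows too, beside 0.305% of all autosomal windows. Among the 566 flanking windows with a DMSO level of at least 6 this share was 3.89%, beside 1.02% of all such autosomal windows, with no test. The 1.02% takes in 37725 windows of 9 or more, of which 0 were lost, so DMSO levels were not matched. Over DMSO levels from 6 to 8.52 the autosomal share was 2.47%. In 349 of the 790 members (44.2%) both flanks had a PT2399 concentration of at least 2, and in 118 (14.9%) both were at the PT2399 floor.

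Windows at the floor were more frequent around lost windows than around windows that kept their signal, with DMSO as with PT2399. Among windows with a DMSO level from 6 to below 7, 671 were lost and 8973 kept a PT2399 level of at least 2. To the left of the lost ones, 36.1% of windows were at the floor with DMSO and 37.0% with PT2399, against 17.0% and 15.8% beside the kept ones. At 500 kb to the left the shares were 53.7% and 51.5%, against 35.6% and 33.5%. The lost windows of this bin had a lower median DMSO level than the kept ones, 6.30 against 6.56, so the bins were matched only roughly, and no test was made.

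**Figure D4:**
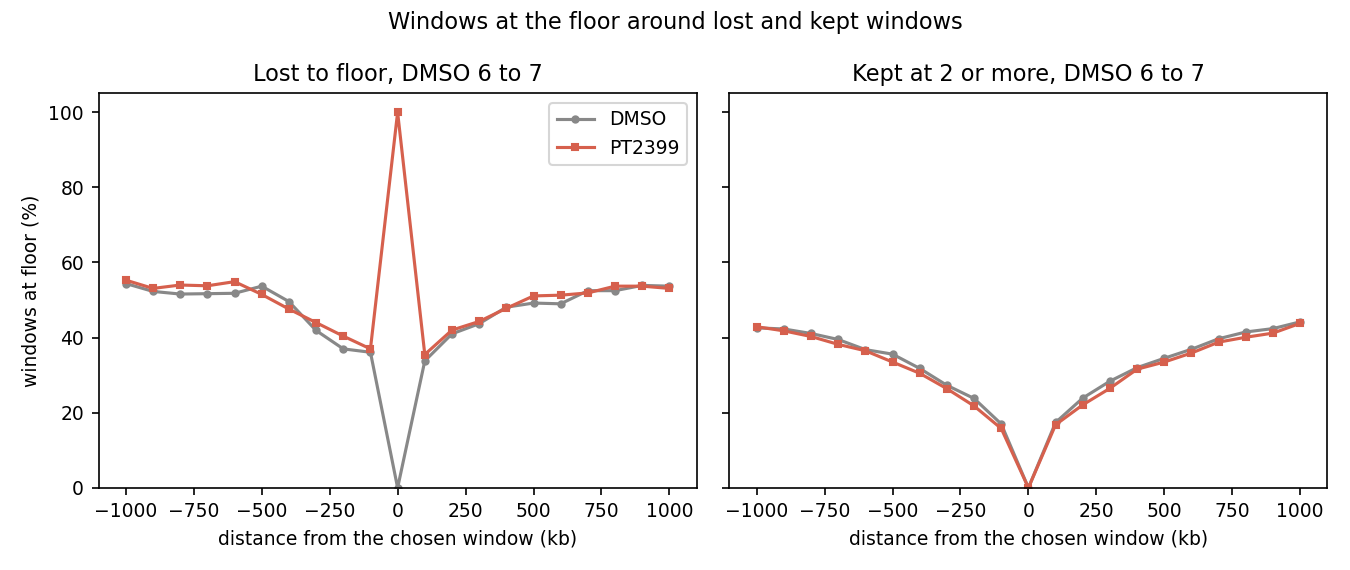
Percent of windows at the floor with DMSO (grey) and PT2399 (red) against distance in kb from the chosen window, on the left for the 671 lost and on the right for the 8973 kept windows with a DMSO level from 6 to below 7. Points are shares over windows, the value at distance 0 follows from how the windows were chosen, and at 100 kb to the left the shares are 36.1% and 37.0% beside lost windows and 17.0% and 15.8% beside kept ones.

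The distance to the strongest SON signal along the chromosome varied widely among the lost windows. The nearest window that reached 9 in both treatments was at a median of 2.95 Mb, with quartiles of 0.82 and 9.53 Mb, and 29.1% of members had one within 1 Mb. The distance could be taken for 783 windows, as the other 7, in 5 regions, were on chromosome 18, where no window reached 9 in both. All autosomal windows had a median of 5.21 Mb with 28.5% within 1 Mb, and windows at the floor in both treatments had one of 10.04 Mb.

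Lost windows were then set beside kept windows in the same bins of DMSO level, with no test. Levels within a bin were matched only roughly. Between 6 and 6.5 the median distance was 3.66 Mb for lost and 3.22 Mb for kept windows, and between 6.5 and 7 it was 2.73 and 2.46 Mb. From 7 to 7.5 the medians were 2.80 and 1.54 Mb, and from 7.5 to 8.52 they were 1.03 Mb for 33 lost windows and 0.52 Mb for 15891 kept ones. Gained windows had a median of 3.07 Mb, next to the 2.95 Mb of lost windows. Only 4 regions touched or overlapped a window of 9 or more in both treatments.

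The region held by all 9 sets lay on chromosome 12 at 46420001 to 46620000, 200 kb long. Its 10 member windows had DMSO levels from 6.13 to 7.11, and all 10 windows inside were at -0.11 with PT2399. The adjoining window on its left had 5.07 with DMSO and 6.60 with PT2399, and the one on its right 8.23 and 7.44, so the floor lay between 2 stretches with signal in both treatments. The lowest FDR in it was 0.000497 in the authors' deposited tables. Of 28 windows of 50 kb inside, 21 were at the PT2399 floor and the highest reached 6.18.

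The deepest loss was on chromosome 10 at 4150001 to 4300000, 150 kb held by 5 sets. In its 5 windows DMSO stood at 8.08, 8.35, 8.41, 8.43 and 8.52, the highest level of any member, and PT2399 at -0.11 in each. The lowest FDR of all members, 1.83e-10 in the authors' deposited tables, belonged to the window with DMSO at 8.52, which changed by -8.63. Just outside, the left neighbour had 7.59 with DMSO and 7.83 with PT2399 and the right one 7.78 and 6.86. At 50 kb, 11 of the 19 windows inside were lost to the floor, and 12 were lower at an FDR of at most 0.01 in the authors' deposited tables, but the highest PT2399 value inside was 5.95. A window of 9 or more in both treatments lay 0.21 Mb away.

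Regions in 8 sets lay on chromosomes 9 and 1. On chromosome 9, the region at 107900001 to 108120000 had DMSO levels from 6.05 to 7.24 in its 11 member windows, and it lay at the edge of a stretch of strong signal. Its left neighbour had 9.19 with DMSO and 8.79 with PT2399, and its right neighbour 2.68 and -0.11. Of its 32 windows of 50 kb, 29 were at the PT2399 floor. The chromosome 1 region at 100480001 to 100740000 had DMSO levels from 6.02 to 6.86 in its 9 member windows. Among all 15 windows inside, the lowest DMSO level was 2.64. The region stood in poor surroundings, with its left neighbour at -0.07 and -0.11 and its right neighbour at 2.80 and 5.74. Lowest FDR values were 0.000213 and 0.00141 for these regions in the authors' deposited tables.

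Held by 7 sets each were 4 regions. The one on chromosome 19 at 31370001 to 31550000 had DMSO levels from 6.04 to 7.28 in its 7 member windows. Its neighbours kept 5.93 and 8.31 with PT2399. On chromosome 6, at 12340001 to 12510000, DMSO ran from 6.03 to 7.24, and both neighbours were slightly higher with PT2399, at 6.04 against 5.83 and 6.54 against 5.65. The second chromosome 1 region, at 59700001 to 59960000, was not a single gap: of the 16 windows inside 7 were at the PT2399 floor, and windows between them reached 5.47. On chromosome 22, the region at 34630001 to 34820000 had DMSO levels from 6.13 to 7.16 in its 7 member windows. Its 50 kb windows parted from the 100 kb ones, as 8 of 26 inside were at the PT2399 floor, the lowest share among the named regions. Its window at 34630001 to 34730000 was at -0.11 with PT2399, while its left and right 50 kb parts were at 4.33 and 3.48, against 5.29 and 5.04 with DMSO.

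Of the regions held by 6 sets, those with the highest DMSO levels were named. On chromosome 5, at 137040001 to 137210000, DMSO ran from 6.88 to 7.92, with a lowest FDR of 3.55e-07 in the authors' deposited tables, and a window of 9 or more was 0.22 Mb away. The chromosome 17 region at 10230001 to 10380000 had DMSO levels from 6.98 to 7.79 and a lowest FDR of 8.97e-07 in the authors' deposited tables. On chromosome 2, the region at 134270001 to 134430000 reached 7.42 with DMSO between neighbours that were both at the DMSO floor of -0.07. With PT2399 the left neighbour was at -0.11 and the right one at 3.94. A gained window lay 40000 bp from the region. A second chromosome 2 region, at 86700001 to 86880000, reached 7.08. The chromosome 15 region at 93420001 to 93570000 reached 7.32, with 7.39 and 7.61 in its left neighbour.

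Length and distance picked out 3 more. The longest region was 290 kb on chromosome 11, at 32580001 to 32870000, with DMSO from 6.01 to 6.80 in its 7 member windows. Of its 18 inner windows, 16 were at the PT2399 floor, and the lowest inner DMSO level was 4.49. Also on chromosome 11, the region at 56900001 to 57040000 adjoined a window that had 9.25 with DMSO and 9.23 with PT2399, so a loss to the floor occurred directly beside strong and steady signal. Its own DMSO levels ran from 6.08 to 6.69. The farthest region lay on chromosome 4 at 184010001 to 184120000, 173.84 Mb from the nearest window of 9 or more on that chromosome. It had DMSO levels of 6.27 and 6.02 in 2 windows and a lowest FDR of 0.0174 in the authors' deposited tables.

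**Figure D5:**
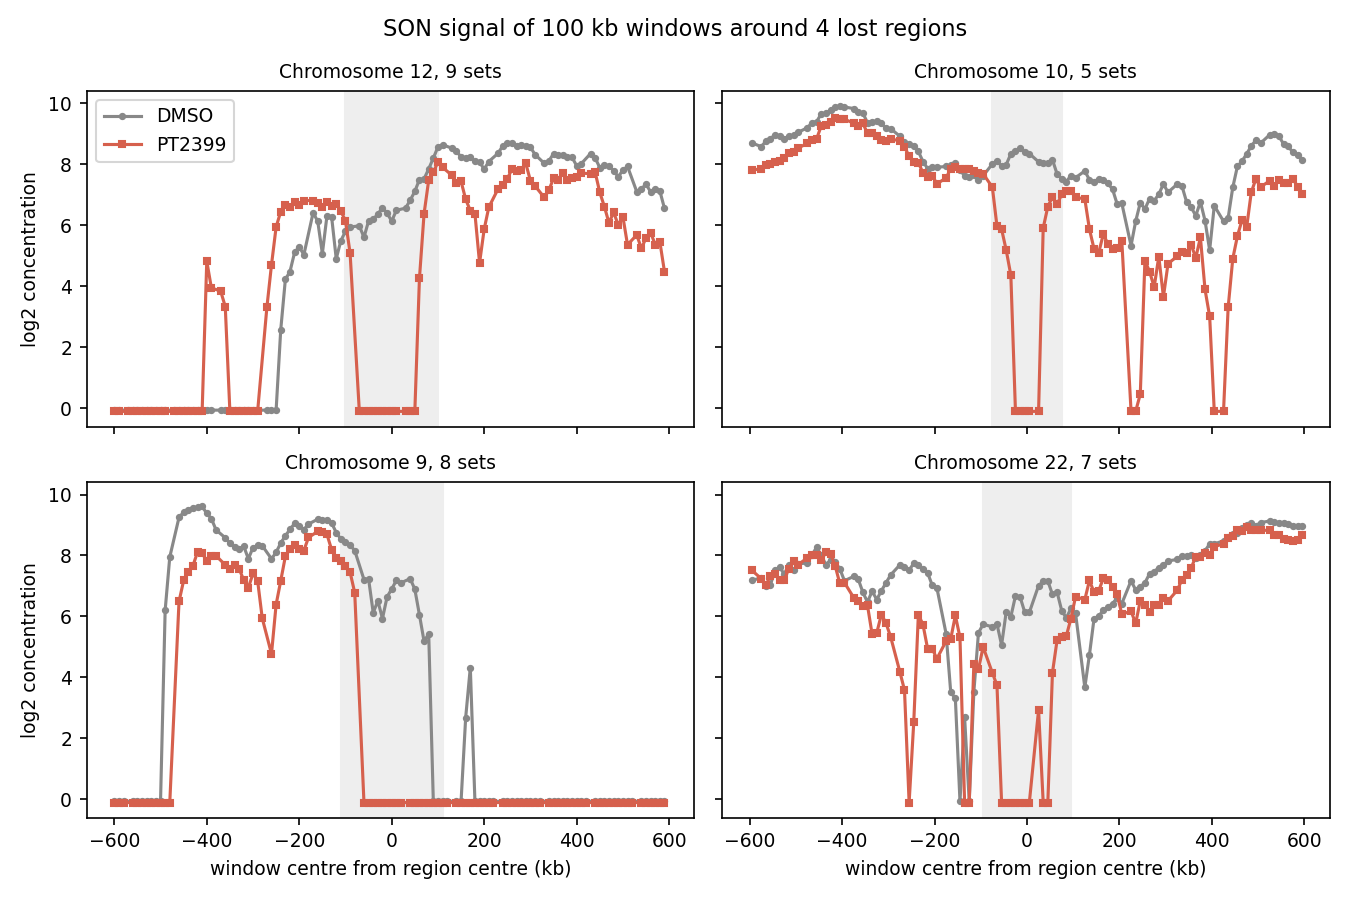
Log2 SON concentration of 100 kb windows (step 10 kb) with DMSO (grey) and PT2399 (red) against the distance of the window centre from the region centre, for the lost regions on chromosomes 12, 10, 9 and 22. Shading marks the merged region, and each point is the authors' mean for a treatment. On chromosome 10 the PT2399 line falls from 7.83 beside the region to -0.11 inside it while DMSO stays between 8.08 and 8.52.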

How the data were processed

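SON TSA-seq was measured in 786-O cells. The build hg19 and the tools bedtools, DiffBind, Picard and Bowtie2 are credited to the submitters' processing notes, with no settings. Input use, read counting and library scaling were not given in the sources used here. The authors' deposited tables, per the file headers, cover 9 shifted sets at each window size, 100 kb (shifted by 10 kb) and 50 kb (shifted by 5 kb), with log2 concentrations per treatment, a log2 fold, a p-value and an FDR per window. The values are the authors' means, with no standard deviation. Changes were computed as PT2399 minus DMSO concentration.

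Members were chosen by the 2 concentration bounds and merged when they overlapped by at least 1 bp. Distances run between window edges on a chromosome. The merging and distances were tested on simulated tables. The class, its bounds and the comparisons were chosen with earlier results of these data known. Regions were named as the 12 in most sets (ties by DMSO level), plus those with the lowest FDR, greatest length, highest DMSO level and smallest and largest distance from a window of 9 or more. For the nearest region, 4 regions were tied at distance 0 and the one in most sets was taken. Panels of the profile plot were chosen among these after their values were seen. Genes and sequences are not given, since no annotation or genome of hg19 was used here. Alternatives covered both bounds, window size, single sets, FDR, merging and the distance minimum. Computations used pandas 2.3.3 and numpy 2.4.6 in Python 3.11.15, and figures matplotlib 3.10.9.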

Additional observations from a re-analysis of the deposited data

How the results depend on the processing

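Counts followed the bounds. With a DMSO minimum of 5, 2245 windows in 756 regions were lost, and with 7, 119 in 69. Windows with an FDR of at most 0.01 alone were 265 in 144 regions, and at 0.05 and 0.1 the called members were 545 and 756. Single sets gave 78 to 102 windows in as many regions. Requiring 2 sets left 192 regions and 5 sets left 31. Gained windows, in alternatives chosen after seeing the data, were 2390 at a minimum of 5 and 123 at 7. The median distance of 2.95 Mb became 0.65 Mb to windows of 8 or more and 7.57 Mb to windows of 10 or more. These moves follow from the bounds themselves. A PT2399 bound of 2 (898 windows in 387 regions), 50 kb sets (984 in 460), joining windows up to 50 kb apart (345 regions), counting 50 kb windows by any overlap (202 regions) and distances within the same set (4 Mb) stayed within 1.5 times of the value reported. The bounds of the 50 kb sets were not adjusted for window length, so that count is not a like one. No paired analysis was possible because the tables hold no values per library.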

Other observations

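Of the 354 lost regions, 172 (48.6%) had another lost region within 1 Mb, and the median distance to the next was 1.07 Mb. Of the 329 gained regions, 172 (52.3%) had another gained region within 1 Mb, with a median of 0.76 Mb to the next, and the difference was not tested. The 172 lost regions with another within 1 Mb formed 72 clusters, 8 of them with 4 or more regions. The other 182 lost regions stood alone. The cluster with most regions, singled out after its values were seen, was on chromosome 2 at 54100001 to 55710000, with 5 regions of 11 windows in all and a highest DMSO level of 7.59. Of the clusters of 4 regions, those with most windows, 11 each, lay on chromosomes 7 and 10. The former was at 134510001 to 135410000, where DMSO reached 7.89. The latter, at 4150001 to 5500000, holds the region with the highest DMSO level. A gained window lay within 1 Mb of 133 of the 354 regions and overlapped 21 of the 354 (5.93%). The like shares for other windows were not counted, so these values are not read as high or low.

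Chromosome X was outside the class. By the same bounds it held 35 lost windows in 17 regions and 29 gained windows, and 1.47% of its 2379 windows with a DMSO level of at least 6 were lost. The highest DMSO level among them was 7.43, and 11 of the 35 had an FDR of at most 0.01 in the authors' deposited tables. The share called among all chromosome X windows was not counted. The bounds that chose the 35 used the same contrast, so nothing is read from this count.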
